A study of Mus musculus with 5 samples.

Results

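The report covers the clock output transcription factors of mouse hepatocytes, 7 genes of the 32285 in the count matrix: Dbp, Tef, Hlf, Nfil3, Ciart, Bhlhe40 and Bhlhe41. They were chosen by symbol, as transcription factors that pass the rhythm of the circadian clock to other genes or act back on it, and all 7 were found. In the liver clock, CLOCK and BMAL1 (the product of Arntl) bind E-box sites and activate, among others, the genes of their own repressors. DBP, TEF and HLF form the PAR bZIP family, which activates liver genes of detoxification and metabolism through D-box sites. NFIL3 binds the same D-box sites as a repressor. CIART (also called CHRONO), BHLHE40 (DEC1) and BHLHE41 (DEC2) repress transcription driven by CLOCK and BMAL1, and BHLHE40 is also known to respond to feeding and insulin.

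The mice were male, wild-type C57BL/6J animals on normal chow, and their isolated hepatocytes went through droplet-based RNA sequencing of single cells. All mice were trained for 3 days with 16 h without food overnight and 8 h of feeding by day. On the last day they fed for 4 h on chow with 20% sucrose in the water, which gave the fed library (0 h, clock hour 13), and food was then withdrawn for 4 h (hour 17), 8 h (hour 21), 16 h (hour 5) or 24 h (hour 13). Each time was 1 library; the number of animals behind it and their age are not given in the sources used here. Only 24 h and 0 h share a clock hour, so that at the other times fasting and hour of day cannot be told apart. With 1 library per time there is no test across animals, and a difference describes 2 libraries, not 2 feeding states. All intervals are 95% intervals that cover counting error only.

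Each library held 10000 barcodes and 40002260 to 68330252 UMIs (unique molecular identifiers, counted molecules). Hepatocytes were barcodes with at least 1000 UMIs, 500 genes and 2 to 30% of UMIs from mitochondrial genes. These numbered 7826, 4567, 2716, 9125 and 4576 at 0, 4, 8, 16 and 24 h, with median depths of 5408, 12097, 15005, 4391 and 8979 UMIs. Barcodes past the UMI and gene minimum with under 2% mitochondrial UMIs, called low-mt barcodes here, numbered 2172, 5345, 576, 234 and 5400 and are described apart. The labelled cell type matched its markers, as 7 of 7 hepatocyte markers stood at 1304 CPM or more in every library. CPM is the number of UMIs per 1000000 non-mitochondrial UMIs, summed over the hepatocytes of a library, and rests on 33521626 to 45532684 such UMIs. Between 18 and 42 hepatocyte barcode sequences per library also occurred in another library, 0.393 to 0.773% of its hepatocytes.

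The PAR bZIP gene Dbp and its counterpart Nfil3 stood at opposite ends at the same hours. Dbp was 28.8-fold lower than in the fed library after 8 h without food, at hour 21, and Nfil3 was 3.85-fold higher. Tef, Hlf, Ciart and Bhlhe40 were also at least 2-fold lower at that time, where 11.8% of all genes tested were at least 2-fold lower and 5.54% higher; the Hlf ratio was under 2-fold in 3 of 13 other ways of processing. At 24 h, back at hour 13, only Bhlhe40 of the 6 members with 5 CPM or more in either library was past 2-fold against fed, 3.79-fold lower, beside 9.39% of all genes lower and 4.92% higher.

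**Figure D1:**
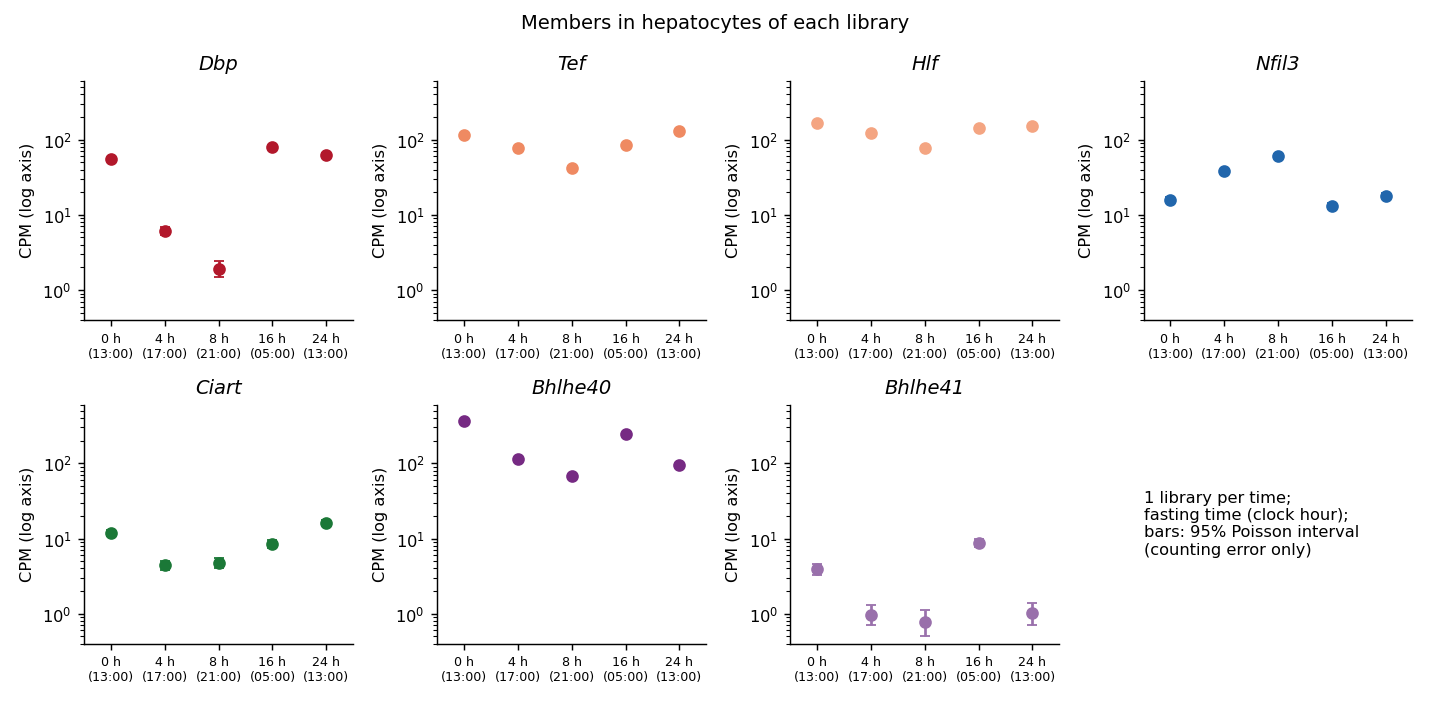
Level of each member in hepatocytes (CPM, log axis) of the 5 libraries by fasting time, with the clock hour below it, 1 panel per gene. Points are single libraries and bars are exact Poisson 95% intervals; Dbp runs from 1.92 CPM at hour 21 to 79.7 CPM at hour 5, and Nfil3 from 13.2 CPM at hour 5 to 61.2 CPM at hour 21.

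Dbp (ENSMUSG00000059824, chromosome 7, 45705088 to 45710203, plus strand, GRCm38) encodes the PAR bZIP activator with the widest daily swing in liver. It stood at 55.3 CPM in the fed library (53.0 to 57.7, 2090 UMIs), 6.17 CPM after 4 h, 1.92 CPM after 8 h (65 UMIs), 79.7 CPM after 16 h and 62.9 CPM after 24 h. The 2 evening libraries were low and the other 3 were high, and no 2 neighbours in the order of levels had overlapping intervals. The highest and the lowest library differed 41.5-fold (32.4 to 53.9). On the log2 scale the ratio to fed was -3.16 after 4 h (-3.35 to -2.98), -4.85 after 8 h (-5.23 to -4.49), 0.53 after 16 h (0.44 to 0.61) and 0.19 after 24 h (0.10 to 0.27). Among all genes tested after 8 h against fed, 0.191% had a lower ratio than Dbp. Between 8 h and 16 h Dbp differed by 5.37 on the log2 scale, and 0.0455% of the genes tested had a higher ratio.

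Tef (ENSMUSG00000022389, chromosome 15, 81802421 to 81826863, plus strand) stood at 116 CPM when fed and 77.5, 42.3, 85.1 and 128 CPM at 4, 8, 16 and 24 h. Its range was 3.04-fold (2.86 to 3.22), with the lowest level again after 8 h. The log2 ratio to fed was -0.58, -1.45, -0.45 and 0.15 in the same order. Hlf (ENSMUSG00000003949, chromosome 11, 90336536 to 90390895, minus strand), the last of the PAR bZIP genes, stood at 164, 124, 76.5, 141 and 153 CPM from 0 h to 24 h. Its range of 2.14-fold (2.04 to 2.24) was the smallest of the 7 members. The Hlf log2 ratio to fed after 8 h was -1.10, and over the other ways of processing it ran from -2.08 in low-mt barcodes to -0.85 with TMM scaling. All 3 PAR bZIP genes were lowest at hour 21 and next lowest at hour 17, and within each gene no neighbouring levels had overlapping intervals.

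Nfil3 (ENSMUSG00000056749, chromosome 13, 52967209 to 52981073, minus strand), the D-box repressor, was highest in the libraries in which the PAR bZIP genes were lowest. It stood at 15.9 CPM when fed (14.7 to 17.2), 37.9 CPM after 4 h, 61.2 CPM after 8 h (58.6 to 63.9), 13.2 CPM after 16 h and 17.9 CPM after 24 h. The 2 evening libraries were high and the intervals of the 2 libraries of hour 13 overlapped. The log2 ratio to fed was 1.25 after 4 h (1.12 to 1.39) and 1.94 after 8 h (1.81 to 2.08), above 97.8% and 99.02% of the genes tested. At 16 h it was -0.27 and after 24 h 0.17.

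A ratio of 2 genes within a library needs no scaling by depth, so Dbp UMIs were also counted per Nfil3 UMI. There were 3.48 Dbp UMIs per Nfil3 UMI in the fed library (3.17 to 3.81), 0.163 after 4 h (0.143 to 0.185), 0.0314 after 8 h (0.0242 to 0.0402), 6.05 after 16 h (5.46 to 6.70) and 3.52 after 24 h (3.23 to 3.84). Both libraries of hour 13 had overlapping intervals in this ratio, with 24 h without food between them. With Tef and Hlf added to Dbp, the ratio was 21.1 when fed, 5.47 after 4 h, 1.97 after 8 h, 23.2 after 16 h and 19.2 after 24 h. The balance of activator to repressor transcripts was thus lowest at hour 21 in both counts.

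Ciart (ENSMUSG00000038550, chromosome 3, 95878503 to 95882251, minus strand) stood at 11.9 CPM when fed, 4.44 CPM after 4 h, 4.79 CPM after 8 h, 8.41 CPM after 16 h and 16.2 CPM after 24 h. The 2 evening libraries were lowest with overlapping intervals, and the 24 h library was highest. The log2 ratio to fed was -1.43 after 4 h (-1.67 to -1.19), -1.32 after 8 h (-1.59 to -1.05), -0.50 after 16 h and 0.44 after 24 h (0.26 to 0.62). An antisense gene, C920021L13Rik, overlaps Ciart over 3749 bases and stood at 16.2, 10.8, 10.3, 9.01 and 19.7 CPM from 0 h to 24 h. The sources used here do not say whether the counting used strand, and what the overlap adds to either count was not tested. Dbp and Sphk2, on opposite strands, share 737 bases. Sphk2 stood between 23.5 and 35.6 CPM, and at 30.7 CPM after 8 h, where Dbp stood at 1.92 CPM. Tef, Bhlhe40 and Bhlhe41 also overlap a gene on the other strand.

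Bhlhe40 (ENSMUSG00000030103, chromosome 6, 108660629 to 108666925, plus strand) had a different course. It stood at 363 CPM when fed (13703 UMIs, 357 to 369), 114 CPM after 4 h, 68.0 CPM after 8 h, 246 CPM after 16 h and 95.6 CPM after 24 h. The fed and 16 h libraries were high and the other 3 low, with no overlapping neighbours. The log2 ratio to fed was -1.66 after 4 h, -2.42 after 8 h (-2.48 to -2.35), -0.56 after 16 h and -1.92 after 24 h (-1.98 to -1.87). Its level after 24 h was 2.58-fold below that after 16 h, and the 2 libraries of hour 13 differed 3.79-fold.

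Bhlhe41 (ENSMUSG00000030256, chromosome 6, 145858243 to 145865558, minus strand), the closest relative of Bhlhe40, was sparse. It stood at 3.89 CPM when fed (147 UMIs), 0.966 CPM after 4 h (44 UMIs), 0.769 CPM after 8 h (26 UMIs), 8.80 CPM after 16 h (295 UMIs) and 1.01 CPM after 24 h (38 UMIs). The libraries of 4, 8 and 24 h were low, with overlapping intervals between neighbours, and 16 h stood 2.26-fold above fed (log2 ratio 1.18, 0.89 to 1.47). Against fed, the log2 ratio was -2.01 after 4 h (-2.53 to -1.51), -2.34 after 8 h (-3.001 to -1.73) and -1.94 after 24 h (-2.50 to -1.42), all at levels under the 5 CPM needed for a call.

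Promoter sequence is shown for 4 members, because Tef, Ciart and Bhlhe41 share a clock element and Nfil3 holds another. Windows from 250 bases before to 50 bases after the annotated start (RefSeq, GRCm38.p6) were at hand for 6 members, all but Bhlhe40. The E-box CACGTG reads the same on both strands. It was in windows of 3 of these 6 members, counted by gene, of which Tef had 2 windows. Counted by window, it was in 7.15% of all 32851. Dbp, Hlf and Nfil3 had no E-box in theirs. Ciart holds 3 E-boxes, which begin 116, 58 and 44 bases before its start. Both windows of Tef hold 1, and the stretch printed lies within the gene outside annotated exons, upstream of an internal start. The core of a ROR element, TAGGTCA, bound by ROR activators and REV-ERB repressors, was in the Nfil3 window and in 2.61% of all windows on either strand. The D-box letters TTATGTAA and TTACGTAA, searched on both strands, were in no member's window and in 0.938% and 0.119% of all windows. A match is a description of letters and not a measured binding site. Capitals mark E-boxes, or in Nfil3 the ROR element core as read on the gene's strand, the reverse complement of TAGGTCA. The Nfil3 stretch crosses the RefSeq start but overlaps an annotated Nfil3 exon, as the gene position given above begins upstream, at 52981073. The stretches run 5′ to 3′ on the gene's strand: Ciart chr3:95882252-95882389, minus; Bhlhe41 chr6:145865559-145865618, minus; Tef chr15:81811231-81811326, plus; Nfil3 chr13:52981035-52981061, minus, across the start.
Ciart: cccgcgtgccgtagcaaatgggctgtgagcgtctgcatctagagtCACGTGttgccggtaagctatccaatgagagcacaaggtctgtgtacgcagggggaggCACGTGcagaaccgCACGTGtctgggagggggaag
Bhlhe41: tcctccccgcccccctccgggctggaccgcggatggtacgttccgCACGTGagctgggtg
Tef: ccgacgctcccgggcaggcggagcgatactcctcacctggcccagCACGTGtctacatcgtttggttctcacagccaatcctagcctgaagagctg
Nfil3: cgctcggaacTGACCTActaacacaca

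Calls against fed were counted over genes with 5 CPM or more in either library, at 2-fold or more, and the 4 comparisons share the fed library. At 4 h, Nfil3 was called higher and 3 of 6 members tested lower (Dbp, Ciart and Bhlhe40), beside 3.75% higher and 6.72% lower of all 8844 genes tested. At 8 h, 1 member was higher (Nfil3) and 5 lower of 6, beside 5.54% and 11.8% of all genes. At 16 h, 1 of 7 was higher (Bhlhe41) and 0 lower, beside 3.0% and 4.18%. At 24 h, 0 of 6 were higher and 1 lower (Bhlhe40), beside 4.92% and 9.39%. The median log2 ratio of all 7 members, Bhlhe41 included, was -1.43, -1.45, -0.27 and 0.15 at 4, 8, 16 and 24 h, beside -0.11, -0.094, -0.028 and -0.11 over all genes tested.

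**Figure D2:**
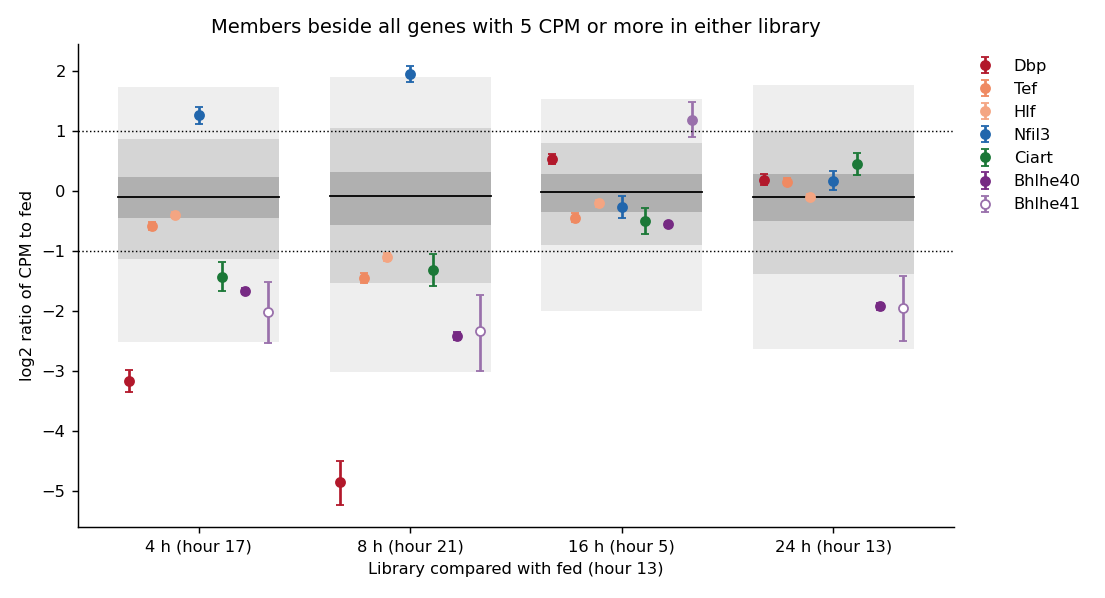
Log2 ratio of each member to the fed library at 4, 8, 16 and 24 h, with 95% counting intervals; grey bands hold the 1st to 99th, 5th to 95th and 25th to 75th percentiles of all genes tested, and open symbols are members under 5 CPM in both libraries. Dbp lies below the 1st percentile after 4 h and 8 h, where Nfil3 lies above the 95th, and after 24 h Bhlhe40 (-1.92) and Bhlhe41 (-1.94, an open symbol) lie lowest.

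Against the library before, Dbp alone of 5 members tested was past 2-fold between 4 h and 8 h (log2 ratio -1.68), beside 1.21% of genes higher and 2.43% lower. With all UMIs in the denominator Dbp fell under the 5 CPM minimum and was not called, though its ratio was past 2-fold in all 13 alternatives (-1.86 to -1.08). Between 8 h and 16 h, 4 of 7 members were higher (Dbp, Tef, Bhlhe40 and Bhlhe41) and Nfil3 was lower, beside 10.8% higher and 7.01% lower. The Tef ratio was just past 2-fold (log2 1.01, 0.92 to 1.10), and it was under 2-fold in 7 of 13 other ways of processing, which gave 0.83 to 1.21. Between 16 h and 24 h, 0 of 7 were higher and 2 lower (Bhlhe40 and Bhlhe41), beside 5.17% and 5.99%. Bhlhe41 had log2 ratios of 3.52 and -3.12 at these last steps.

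The comparison of 24 h with 0 h is the only one at the same hour. Dbp, Tef and Nfil3 were higher by 0.19, 0.15 and 0.17 on the log2 scale, and Hlf was lower by 0.099, a direction that turned to 0.078 higher with TMM scaling. The Tef ratio turned to -0.086 with 0 to 30% mitochondrial UMIs, -0.032 with per-cell means and -0.25 in low-mt barcodes, where that of Nfil3 turned to -0.038. Ciart was 1.36-fold higher and Bhlhe40 3.79-fold lower. Bhlhe41, under 5 CPM in both libraries, was 3.85-fold lower.

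Other transcripts moved beside the 2 Bhlhe genes. Of the cell markers, 8 endothelial genes summed to 84.8 CPM in the fed hepatocytes and 12.2 to 31.1 CPM in the others, with none at 0. The 8 macrophage markers summed to 40.9 CPM when fed and 0.148 to 5.19 CPM later, with 5 at 0 after 8 h. The 5 cholangiocyte markers summed to 78.1, 48.3, 35.7, 76.1 and 27.0 CPM from 0 h to 24 h, high when fed and after 16 h as Bhlhe40 was. Most of that sum was Sox9 (67.1, 40.6, 29.2, 70.3 and 16.6 CPM), while Epcam, Krt19 and Krt7 stood at 0.479 CPM or less in every library and at 0 after 16 h. Spp1 had another course, with 10.6, 7.42, 6.03, 5.73 and 9.90 CPM, lowest after 16 h. The stellate and fibroblast markers summed to 19.6, 0.791, 10.6, 3.70 and 17.1 CPM, low after 16 h and high after 24 h, unlike Bhlhe40. Without barcodes that held markers of other cell types, the 24 h ratio of Bhlhe40 was -1.94. Immediate-early genes, which respond within minutes to stimuli such as cell handling, summed over 12 genes to 450, 413, 203, 648 and 201 CPM from 0 h to 24 h. Dusp1 was the largest of them in each library, at 227, 101, 76.7, 184 and 65.1 CPM. After 4 h this sum was below fed, while the median log2 ratio to fed of the 9 genes tested was 0.87. The summed level of 10 acute-phase genes, which code for liver proteins of inflammation, was 8799, 10498, 6086, 23226 and 6675 CPM. Both sums were highest after 16 h, where Bhlhe41 was highest, and both were lower after 8 h and 24 h than when fed, as was Bhlhe40. Bhlhe40 was also below fed after 4 h and 16 h, where the acute-phase sum was above fed, as was the immediate-early sum after 16 h. The part of these markers and sums in the levels of Bhlhe40, Bhlhe41 and Nfil3 was not tested.

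By gene, 3 of 9 immediate-early genes tested were higher after 4 h (Egr1 1.27, Nr4a1 2.85 and Btg2 1.02 as log2 ratios to fed) and Dusp1 was lower (-1.17). At 8 h, 5 of 8 were lower (Fos -3.60, Junb -2.25, Dusp1 -1.56, Egr1 -1.14 and Klf6 -1.05). At 16 h, 3 of 9 were higher (Nr4a1 4.95, Egr1 1.94 and Klf6 1.28), and after 24 h 3 of 8 were lower (Fos -2.47, Dusp1 -1.80 and Junb -1.55). Of 10 acute-phase genes, 3 were higher after 4 h (Saa1 1.59, Saa2 2.32 and Lcn2 2.10) and 6 after 16 h (Saa3 5.19, Lcn2 4.74, Saa2 4.51, Saa1 3.67, Apcs 2.59 and Fgb 1.15). At 8 h, 4 were lower (Saa2 -4.08, Saa1 -3.34, Orm2 -2.50 and Apcs -1.18), and after 24 h 3 were lower (Saa2 -4.49, Saa1 -4.18 and Orm2 -1.78).

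The members were set beside 14 core clock genes. At 4 h, 1 of 12 tested was past 2-fold higher, Arntl (log2 ratio to fed 2.54), and 3 were lower, Per2 (-2.67), Nr1d1 (-2.06) and Per3 (-1.27). At 8 h, 3 of 12 were higher, Arntl (2.47), Per1 (1.56) and Clock (1.08), and 4 lower, Per2 (-5.15), Per3 (-3.61), Nr1d1 (-2.13) and Nr1d2 (-1.89). Dbp was thus low in the libraries in which its activator gene Arntl was high, at 32.1 and 30.5 CPM against 5.50 to 6.71 CPM in the others. At 16 h, 1 of 13 was higher, Nr1d1 (3.14), which encodes a repressor of Nfil3 and Arntl, and the lower ones included Per2 (-2.61) and Cry1 (-1.45). Nr1d1 stood at 14.1, 3.38, 3.22, 125 and 8.94 CPM from 0 h to 24 h, and Nfil3 at 15.9, 37.9, 61.2, 13.2 and 17.9 CPM. The part of Nr1d1 in the level of Nfil3 was not tested. At 24 h, 1 of 12 was higher, Per1 (1.49), and 1 lower, Per2 (-1.69), so that Per2 as well as Bhlhe40 differed between the 2 libraries of hour 13.

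**Figure D3:**
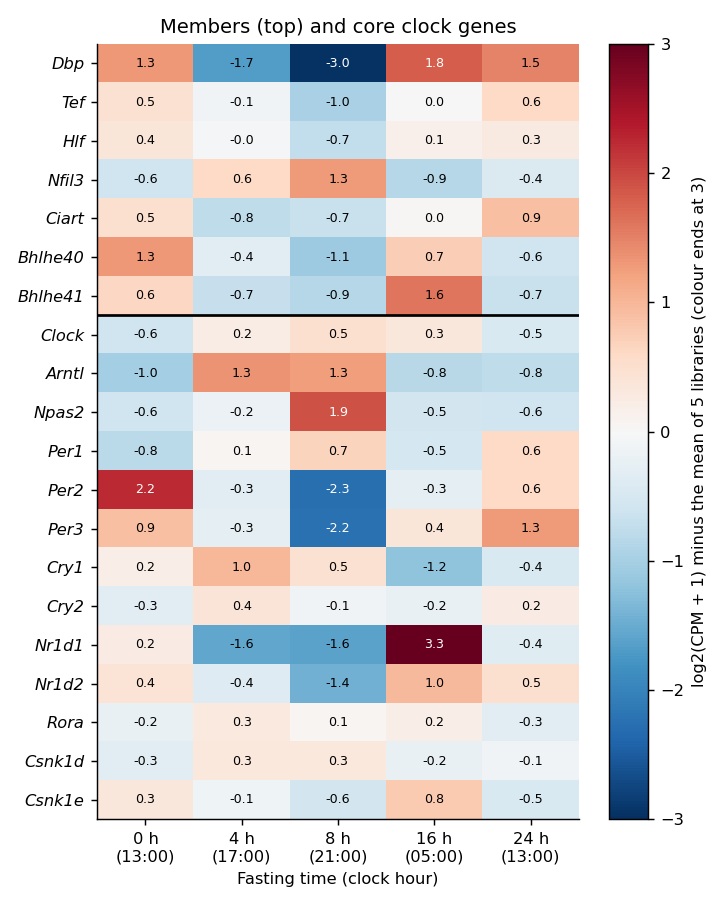
Level of each member (upper rows) and of core clock genes (lower rows) in the 5 libraries by fasting time, as log2(CPM + 1) minus the gene's mean over the libraries, given by colour and in each cell. Dbp, Per2 and Per3 are lowest at hour 21, where Nfil3 is highest, and Arntl is high at hours 17 and 21.

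The 10 genes of a list of PAR bZIP targets did not share 1 course with Dbp. At 4 h, 2 of 8 tested were higher, Cyp2b10 (log2 ratio 2.91) and Por (1.33), and 0 lower. At 8 h, where Dbp was lowest, 2 were higher, Cyp2b10 (3.04) and Por (2.21), and 2 lower, Alas1 (-1.87), the first enzyme of heme synthesis, and Cyp2a5 (-1.34). At 16 h, 0 of 8 were higher and 3 lower, Cyp7a1 (-1.43), the rate-limiting enzyme of bile acid synthesis, Alas1 (-1.16) and Usp2 (-1.05). At 24 h, 4 of 9 were higher, Cyp2b9 (6.69, from 0.132 CPM when fed), Por (1.70), Usp2 (1.15) and Nr1i3 (1.07), and 2 lower, Cyp2a5 (-2.12) and Cyp7a1 (-1.12).

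For each member with a mean of 5 CPM or more, the 3 genes of most similar course were found by the root mean square difference of centred log2(CPM + 1) over the 5 libraries, among 6932 genes with a mean of 10 CPM or more. Hlf had the closest match, Cd1d1 (0.022), and Spns2 was also close (0.084). Bhlhe40 was followed by Chsy3 (0.089), Cyp2u1 (0.11) and Sqle (0.12), a gene of cholesterol synthesis. Tef was followed by Ugt1a1 (0.15), Smim4 (0.16) and Akr1c19 (0.17), Nfil3 by Lrfn3 (0.21), Plin5 (0.21) and Pfkfb1 (0.22), and Ciart by Dsg1c (0.24), Noct (0.25) and G0s2 (0.25). Dbp had no close match: the nearest genes were Per3 (0.97), Arrdc3 (0.99) and Inhbe (1.01). The measure is not scaled for the size of a gene's range, which was widest for Dbp and smallest for Hlf among the members. The distances of different members are therefore not on a common footing. With 5 libraries, such likeness is a description.

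The lobule axis runs from the portal field, where Cyp2f2 is high, to the central vein, where Cyp2e1 is high. Hepatocytes of each library were ranked by their Cyp2f2 minus Cyp2e1 level and split into 3 equal parts, which are ranges of a score and not positions in tissue. Of other landmark genes, 10 of 10 portal genes stood higher in the Cyp2f2-high part and 12 of 12 central genes higher in the Cyp2e1-high part at 0, 4, 8 and 16 h, and 9 of 10 and 11 of 12 after 24 h. Depth differed between the parts: the Cyp2e1-high part had a median of 3091 UMIs after 4 h and 3028 after 24 h, and the Cyp2f2-high part 18952 and 11202. After 16 h these medians were closer, at 3856.5 and 4330 UMIs. The middle part was the deepest at 0, 8, 16 and 24 h.

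Between the outer parts, 1.5-fold or more with 5 CPM in either part counted as a call. No member was called at 0 h (of 6 tested), 4 h (of 5) or 8 h (of 4), beside 2.1%, 4.51% and 2.22% of all genes higher and 7.28%, 5.67% and 3.97% lower in the Cyp2f2-high part. Bhlhe40 was called after 16 h and 24 h, as 1 of 7 and 1 of 6 members, beside 2.86% and 9.21% of genes higher and 5.71% and 11.5% lower. It stood at 277 CPM in the Cyp2f2-high and 180 CPM in the Cyp2e1-high part after 16 h (log2 ratio 0.63, 0.54 to 0.71). At 24 h the levels were 108 and 55.2 CPM (0.97, 0.81 to 1.13). The 24 h value moved with the choice of barcodes, to 0.46 with at least 3000 UMIs, 0.55 with 5 to 30% mitochondrial UMIs and 1.91 with 2 to 15%; at 16 h thinning each cell to 1000 UMIs gave 0.46 and 2 to 15% mitochondrial UMIs 0.55, both under 1.5-fold. At 0, 4 and 8 h the Bhlhe40 ratio was 0.26, 0.17 and 0.21. The 4 h result depended on the barcodes too: Bhlhe40 was called with 2 to 15% mitochondrial UMIs (1.07, with Hlf at 1.27 and Tef at 0.67), with 0 to 30% (0.61) and with per-cell means (0.66). Thinning each cell to 1000 UMIs gave 0.58 for Bhlhe40 at 4 h, which lies at the 1.5-fold limit.

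Dbp was higher in the Cyp2e1-high part at 0 h (50.2 and 62.2 CPM, log2 ratio -0.31, -0.47 to -0.15), 4 h (-0.53, -0.96 to -0.093) and 24 h (-0.26, -0.42 to -0.097). Over 14 alternatives the 4 h ratio of Dbp ran from -0.70 with 0 to 30% mitochondrial UMIs to 0.0047 in low-mt barcodes. It was under 1.5-fold in 10 of them. At 8 h the interval spanned 0 (-0.45, -1.39 to 0.48), and after 16 h the side was the other one (89.4 and 66.3 CPM, 0.43, 0.29 to 0.57). Hlf had a log2 ratio of 0.43 after 24 h and -0.22 after 16 h, Tef of 0.30 after 24 h and -0.36 after 8 h. The 24 h ratios also moved with the choice of barcodes, to 0.025 for Hlf and -0.037 for Tef with at least 3000 UMIs, and to 1.35 and 1.09 with 2 to 15% mitochondrial UMIs. The Nfil3 interval spanned 0 in all 5 libraries, with ratios from -0.23 to 0.14.

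**Figure D4:**
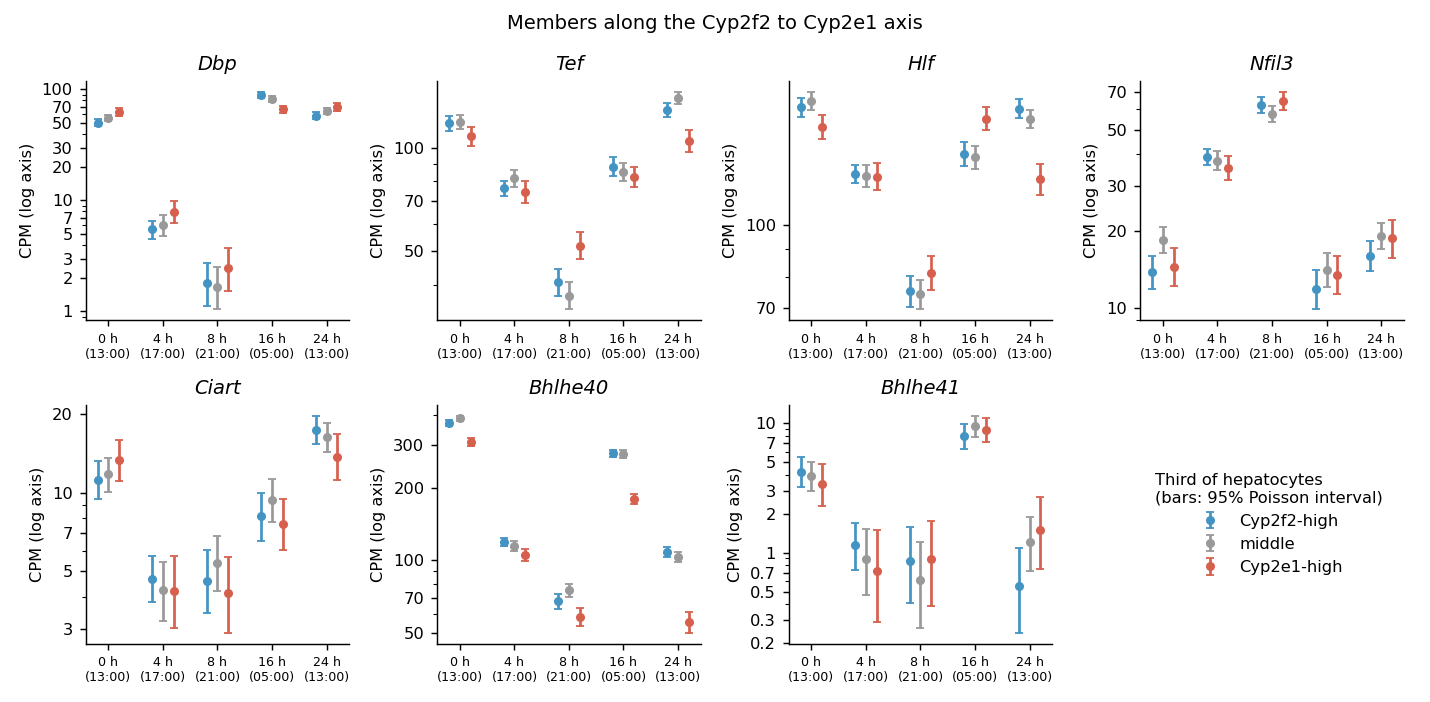
Level (CPM, log axis) of members in the Cyp2f2-high, middle and Cyp2e1-high parts of the hepatocytes of each library, 1 panel per gene; bars are exact Poisson 95% intervals. Bhlhe40 after 24 h runs from 108 CPM in the Cyp2f2-high to 55.2 CPM in the Cyp2e1-high part, and Dbp is low in all 3 parts after 4 h and 8 h.

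All 4 members called after 4 h against fed (Dbp, Nfil3, Ciart and Bhlhe40) were past 2-fold in each of the 3 parts. Of the 6 called after 8 h, 5 were past 2-fold in each part, and Hlf was at -1.13 in the Cyp2f2-high, -1.19 in the middle and -0.90 (-1.03 to -0.77) in the Cyp2e1-high part. At 4 h the log2 ratio of Dbp was -3.19, -3.21 and -2.98 in the same order, and that of Nfil3 was 1.497, 1.03 and 1.29. At 8 h the log2 ratio of Dbp to fed was -4.81 in the Cyp2f2-high, -5.05 in the middle and -4.66 in the Cyp2e1-high part, that of Nfil3 was 2.17, 1.64 and 2.16, and that of Bhlhe40 was -2.46, -2.37 and -2.41. At 16 h the Dbp ratio was 0.83 (0.69 to 0.98), 0.57 and 0.090 (-0.072 to 0.25) in the same order. At 24 h the Bhlhe40 ratio was -1.77 (-1.86 to -1.69), -1.91 and -2.49 (-2.64 to -2.34). The Dbp to Nfil3 ratio after 8 h was 0.0288, 0.0290 and 0.0379 in the 3 parts.

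The low-mt barcodes, which the 2% minimum keeps out of the hepatocytes, had median depths of 1144 to 2640 UMIs. Dbp stood at 68.3, 11.1, 5.23, 58.4 and 97.2 CPM in them from 0 h to 24 h, and Nfil3 at 19.6, 46.3, 39.9, 15.2 and 19.1 CPM. The evening libraries were again low in Dbp and high in Nfil3. Hlf stood at 85.5, 38.2, 20.3, 43.2 and 56.6 CPM, below the hepatocytes of the same library in all 5, as did Tef and Bhlhe40. At 24 h, the log2 ratio of low-mt barcodes to hepatocytes of the same library was 0.63 for Dbp (0.54 to 0.72) and -1.43 for Hlf (-1.53 to -1.34). Bhlhe40 stood at 189, 35.2, 24.9, 88.9 and 39.9 CPM, and its 24 h ratio to fed within these barcodes was -2.24 (-2.39 to -2.10). At 16 h the low-mt barcodes had 393508 UMIs in all, and the Dbp ratio to fed of -0.23 (-0.91 to 0.39) differed in sign from that of hepatocytes. Bhlhe41 had 0 UMIs there, with an exact upper limit of 9.37 CPM, so that the 8.80 CPM in the hepatocytes of that library lies within its interval. Along the axis, the Bhlhe40 ratio in low-mt barcodes was -0.0045 after 24 h.

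**Figure D5:**
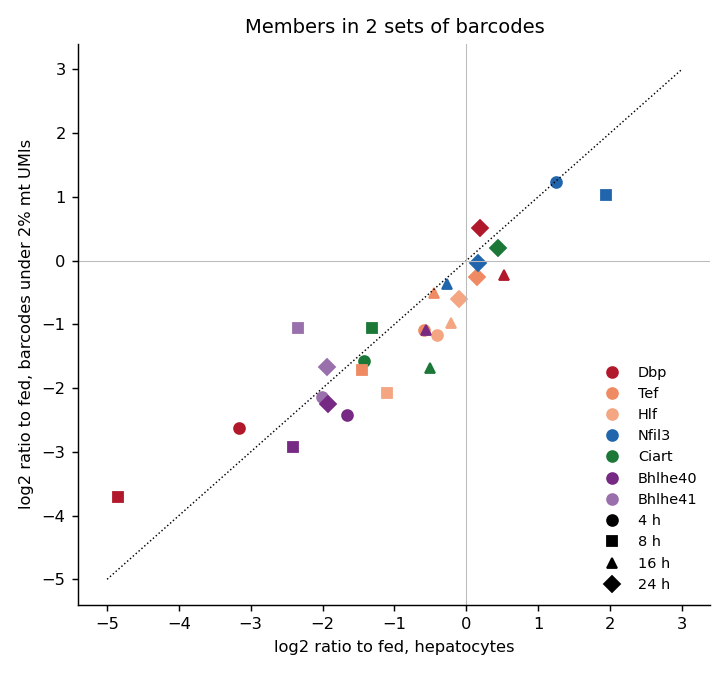
Log2 ratio of each member to the fed library in hepatocytes (horizontal) and in low-mt barcodes (vertical), with colour for the gene, symbol for the fasting time and a dotted line of equal ratios; Bhlhe41 after 16 h, with 0 UMIs in low-mt barcodes, is not drawn. Dbp lies far down both axes after 4 h and 8 h, Nfil3 lies above 0 on both at these times, and Dbp after 16 h is above 0 in hepatocytes and at -0.23 in low-mt barcodes.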

How the data were processed

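The authors deposited raw UMI counts for each gene in each barcode; per the file headers these came from Cell Ranger 6.0.1 without normalization. The submitters' processing notes name the build mm10. The matrix held 32285 genes, 50000 barcodes and 73145285 entries, and a second table gave each barcode's library; 0 columns of per-sample values stayed unused. How the barcodes were chosen for deposit is not given in the sources used here. Libraries were made with 10x 3' chemistry, per the labels' protocols, so that a count is a 3' end and does not scale with transcript length. Gene positions are those of GENCODE M21 (GRCm38), which held 32158 of the gene IDs (99.6%).

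For each library, the UMIs of a gene were added up over hepatocytes and divided by all non-mitochondrial UMIs of these cells. Intervals are exact Poisson intervals for CPM and exact conditional binomial intervals for ratios, at 95%. As each group is 1 library, there are no p-values and no standard errors. No doublet caller was run; leaving out the 5% of hepatocytes with the most UMIs was an alternative. Free RNA was not subtracted, except in an alternative that removed 10% of the UMIs at the profile of low-mt barcodes. The axis value per cell was log2(Cyp2f2 per 10000 UMIs + 1) minus that of Cyp2e1. Other alternatives were other mitochondrial and UMI limits, leaving out barcodes with markers of other cell types, per-cell means, other denominators, TMM (edgeR 4.0.16 in R 4.3.3) and median-of-ratios scaling, other minima and folds, a landmark score, 5 parts and thinning to 1000 UMIs. The ratio step was tested on simulated data. Tools were scipy 1.17.1, numpy 2.4.6 and pandas 2.3.3 under python 3.11.15, with matplotlib 3.10.9 for figures.

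The 7 members were always named. Genes of the core clock, PAR bZIP target, immediate-early and acute-phase lists were named where past 2-fold against fed, and for each member with a mean of 5 CPM or more the 3 genes of most similar course. The members and lists were chosen with earlier results of these data known. Some genes that this rule names are not reported here.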

Additional observations from a re-analysis of the deposited data

Results flagged for a closer look

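Members were also counted in barcodes under the UMI or gene minimum, which no comparison above uses. Such barcodes were frequent in 2 libraries, and members are given where they exceeded the level of 3 counts. After 8 h, 6675 barcodes with 3203124 non-mitochondrial UMIs gave 5.00 CPM of Dbp, 15.9 CPM of Tef, 24.98 CPM of Hlf, 31.8 CPM of Nfil3, 1.87 CPM of Ciart and 24.98 CPM of Bhlhe40. Nfil3 was again above Dbp, as in the hepatocytes of that library, while Tef, Hlf, Nfil3, Ciart and Bhlhe40 were below their hepatocyte levels and Dbp was above its own. After 16 h, 637 barcodes with 564748 such UMIs gave 42.5 CPM of Dbp, 47.8 CPM of Tef, 70.8 CPM of Hlf, 7.08 CPM of Ciart, 93.8 CPM of Bhlhe40 and 7.08 CPM of Bhlhe41. Nfil3 had 1 UMI in them.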

How the results depend on the processing

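No paired analysis was possible because each group is 1 library, and for the same reason no replicate could be left out. Of the alternatives to member counts and their log2 ratios between libraries, 103 of the counts stayed within 1.5 times and 9 moved, while 486 ratios stayed within their counting interval, 134 moved outside it with the same sign and 14 changed sign. Along the axis, 54 counts stayed and 21 moved; 395 ratios stayed in their interval, some with the other sign where it spanned 0, 66 moved with the same sign, and 24 changed sign, 14 of them from an interval that spanned 0. The low-mt alternative was chosen after seeing the data. In 8 cases no value could be given because a member had 0 UMIs, 6 of them in low-mt barcodes and 2 after thinning. The cause of these differences was not tested.

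Over 13 alternatives, the ratio of Dbp to fed ranged from -3.29 to -2.62 after 4 h and from -5.12 to -3.71 after 8 h, that of Nfil3 after 8 h from 1.02 to 2.19, and that of Bhlhe40 after 24 h from -2.24 to -1.75. TMM scaling moved the median of all genes from -0.11 to 0.12 after 4 h, from -0.094 to 0.16 after 8 h and from -0.11 to 0.076 after 24 h, and the Hlf ratio at 24 h against fed turned to 0.078 with it and to 0.047 with median-of-ratios scaling. The Tef ratio at 24 h against fed turned to -0.086 with 0 to 30% mitochondrial UMIs, to -0.25 in low-mt barcodes and to -0.032 with per-cell means. The Hlf ratio of 24 h to 16 h turned to -0.036 with 2 to 15%, to -0.21 with 0 to 30% and to -0.12 with per-cell means. In low-mt barcodes the ratio also turned for Dbp after 16 h against fed (-0.23), Nfil3 at 24 h against fed (-0.038), Nfil3 between 4 h and 8 h (-0.21), Ciart between 8 h and 16 h (-0.63, from 1 UMI after 16 h), Dbp between 16 h and 24 h (0.73) and Bhlhe41 between 4 h and 8 h (1.07, from an interval that spanned 0).

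Counts of members past 2-fold moved as follows. After 16 h against fed, the count of 1 became 2 in low-mt barcodes (Ciart and Bhlhe40, both lower; Ciart had 1 UMI there, which is under 3 counts) and 0 with a minimum of 50 CPM. After 4 h it went from 4 to 2, and between 16 h and 24 h from 2 to 1, with that minimum. At 24 h against fed it went from 1 to 2 with a minimum of 1 CPM, as Bhlhe41 joined Bhlhe40. Between 4 h and 8 h the count of 1 became 0 with all UMIs in the denominator and with a minimum of 50 CPM, and 5 at 1.5-fold. Between 16 h and 24 h it became 4 at 1.5-fold.

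Counts along the axis, 0, 0, 0, 1 and 1 from 0 h to 24 h, moved as follows. With 2 to 15% mitochondrial UMIs they were 3 after 4 h, 0 after 16 h and 3 after 24 h, and with 0 to 30% they were 2 after 4 h and 4 after 24 h. With 5 to 30%, and with at least 3000 UMIs, the 24 h count was 0. In low-mt barcodes the counts were 1, 2, 2 and 0 at 0, 8, 16 and 24 h. Per-cell means gave 1 after 4 h and 4 after 24 h, thinning gave 2, 1, 0 and 2 at 4, 8, 16 and 24 h, and a minimum of 1 CPM gave 1 after 4 h and 2 after 24 h. Subtracting free RNA and splitting into 5 parts each gave 1 after 4 h. Where the interval did not span 0, axis ratios that changed sign were Tef at 24 h with at least 3000 UMIs (-0.037) and Bhlhe40 at 8 h after thinning (-0.24). In low-mt barcodes they were Dbp at 4 h (0.0047), Tef at 8 h (0.24), Dbp at 16 h (-1.91), Hlf at 16 h (2.41), Bhlhe40 at 16 h (-0.32), Dbp at 24 h (0.034), Hlf at 24 h (-0.082) and Bhlhe40 at 24 h (-0.0045). From intervals that spanned 0, those that moved outside them to the other sign included Bhlhe41 at 24 h with 2 to 15% mitochondrial UMIs (0.81), Nfil3 at 24 h and Ciart at 8 h after thinning (0.50 and -0.74) and Tef and Ciart at 4 h in low-mt barcodes (-0.29 and -0.62). Depth limits Bhlhe41, with 26 to 295 UMIs per library, and Dbp after 8 h, with 65.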
